A study of Mus musculus with 4 samples.

Results

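SOX3 ChIP-seq peaks that were called in replicates 1 and 3 of neural progenitor (NP) cells, with no overlapping peak in replicate 2, formed 2538 regions of the mouse genome. They were obtained by merging all peaks that overlap by 1 bp or more over the 3 lists, and they are 2538 of 51271 merged regions. The members were therefore chosen by the peak calls themselves, so the presence, score and width of their peaks are given as a description and were not tested. A further 5358 regions held peaks of all 3 replicates, and 2353 held peaks of replicates 2 and 3 without replicate 1.

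The NP cells came from the R1 line of mouse embryonic stem cells, which 4 days of serum-free culture in N2B27 turn towards neural fate. The ChIP of each of the 3 biological replicates used AF2569 (goat, polyclonal), which was made with human SOX3 as its antigen. All samples share this single line, medium and antibody, there was no genetic or drug treatment, and 1 sample made without antibody served as input. The input has no peak list and was not analysed here on its own. The authors called the peaks of each replicate separately against this input, and since no read count is given for a peak, library depth is unknown.

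SOX3 is a transcription factor of the SOXB1 group, together with SOX1 and SOX2. The HMG box is the DNA-binding domain that gives the SOX family its name. It bends the DNA it contacts, and its short A- and T-rich target is written here as AACAAW, where W stands for A or T. POU proteins, which read an octamer, are among the factors that share composite sites with it. In the developing nervous system SOXB1 proteins are known for keeping progenitors undifferentiated, and many of the sites they bind are distant enhancers rather than promoters.

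The sequences of 4 of the 5 members with the strongest peaks are shown first, since they are what the discordance looks like at its clearest. These 5 are the members with the highest score rank in the weaker of their lists, after leaving out 11 members at or above the same rank that lie mostly in multi-copy sequence. Each is the plus strand of mm9, in the 200 bp around the middle of the region, with matches of AACAAW or its variant GACAAW, and POU words, on either strand in capitals. A word on the minus strand appears as its reverse complement.
Smndc1, chr19:53486724-53486923: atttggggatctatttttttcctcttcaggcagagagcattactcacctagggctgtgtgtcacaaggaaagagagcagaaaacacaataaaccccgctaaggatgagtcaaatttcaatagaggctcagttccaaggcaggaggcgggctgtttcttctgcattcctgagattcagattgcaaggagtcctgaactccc
Gm9797, chr10:11566016-11566215: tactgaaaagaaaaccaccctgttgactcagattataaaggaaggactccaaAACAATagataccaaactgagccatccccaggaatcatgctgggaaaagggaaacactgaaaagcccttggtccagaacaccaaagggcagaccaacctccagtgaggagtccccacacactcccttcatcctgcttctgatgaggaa
Epha7, chr4:27915180-27915379: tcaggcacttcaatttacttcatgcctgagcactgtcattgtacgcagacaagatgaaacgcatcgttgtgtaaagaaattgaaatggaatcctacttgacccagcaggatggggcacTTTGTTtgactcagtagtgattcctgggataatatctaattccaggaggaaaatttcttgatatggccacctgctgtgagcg
Cd180, chr13:103142574-103142773: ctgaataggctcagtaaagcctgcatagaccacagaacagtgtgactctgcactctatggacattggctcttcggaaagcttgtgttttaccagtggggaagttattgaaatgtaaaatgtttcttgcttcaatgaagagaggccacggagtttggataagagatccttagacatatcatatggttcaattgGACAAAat
In these 200 bp, Gm9797, Epha7 and Cd180 held 1 each and Smndc1 held 0. Smndc1 encodes a splicing factor, Epha7 a receptor for ephrins and Cd180 a cell surface protein of B cells. Each of these 4 members was intergenic.

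A second set of windows came from members near genes with no region of all 3 replicates that are known in neural development or change expression in Sox3 null NP cells, and is marked in the same way. Ednrb, the endothelin receptor of migrating neural crest cells, is shown at its promoter and then at a distant region. The others lay near Dlx2, a homeobox gene of the ventral forebrain, near Slit2, which encodes a guidance ligand for Robo receptors, and in Slc44a5, which belongs to a family of choline transporters.
Ednrb, chr14:104243405-104243604: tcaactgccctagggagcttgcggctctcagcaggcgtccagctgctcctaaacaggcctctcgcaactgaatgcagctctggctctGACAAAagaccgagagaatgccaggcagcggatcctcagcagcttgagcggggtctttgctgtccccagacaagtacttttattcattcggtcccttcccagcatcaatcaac
Ednrb, chr14:104298474-104298673: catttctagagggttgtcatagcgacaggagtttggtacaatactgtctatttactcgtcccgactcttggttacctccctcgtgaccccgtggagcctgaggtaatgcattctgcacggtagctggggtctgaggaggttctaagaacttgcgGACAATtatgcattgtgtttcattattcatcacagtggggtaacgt
Dlx2, chr2:71467823-71468022: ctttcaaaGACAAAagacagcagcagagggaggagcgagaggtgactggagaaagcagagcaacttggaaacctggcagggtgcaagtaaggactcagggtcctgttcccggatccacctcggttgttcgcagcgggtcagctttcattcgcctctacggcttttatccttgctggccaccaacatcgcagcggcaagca
Slit2, chr5:47948468-47948667: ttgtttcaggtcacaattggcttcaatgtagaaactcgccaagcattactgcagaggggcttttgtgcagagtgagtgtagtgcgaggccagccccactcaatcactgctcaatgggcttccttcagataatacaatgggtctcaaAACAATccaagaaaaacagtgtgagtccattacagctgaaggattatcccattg
Slc44a5, chr3:153836630-153836829: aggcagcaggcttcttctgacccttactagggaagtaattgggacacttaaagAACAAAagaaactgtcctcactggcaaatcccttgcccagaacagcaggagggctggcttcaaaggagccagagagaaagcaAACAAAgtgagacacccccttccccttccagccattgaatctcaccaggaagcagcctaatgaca
The promoter window and the distant window of Ednrb each held 1 GACAAW word, and Slc44a5 held 2 AACAAW words. Dlx2 held 1 GACAAW word and Slit2 held 1 AACAAW word.

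The joined SOX/POU word was the rarest word searched. It is a loose form of a composite motif, in which A or T, a pair of T and 3 bases that are almost free come directly before most of a POU octamer. The 8 members with the highest score rank among those that hold it are shown as 29-base stretches, read on the strand of the word, with the word in capitals.
Macrod2, chr2:142128943-142128971, plus strand: tcagaccaATTTTTATGCAAAttaaccaa
Sec61b, chr4:47737870-47737898, minus strand: tctcctgtTTTTAAATGCAAAtgttaatg
Chodl, chr16:78828184-78828212, minus strand: ccagtggcTTTCAAATGCAAAtggaaccc
Stau2, chr1:16315971-16315999, plus strand: agacccatTTTGTGATGCAAAggagctct
Igkv1-115, chr6:67832956-67832984, plus strand: gaaagtttTTTCTTATGCTAAtaaagaca
Creb1, chr1:64390315-64390343, plus strand: taggaataTTTGAAATGCAAAtgaggtca
3100002H09Rik, chr4:124155380-124155408, minus strand: gagagaatATTAAAATGCAAAtggattcg
Zfp14, chr7:30816605-30816633, plus strand: gacatggcATTGTGATGCTAAttccaagt
The SOX side of the word is thus weakly set, and 2 of these 8, those of Stau2 and Zfp14, held the core ACAAW there, read on the other strand. None of these 8 members was at a promoter. Those of Macrod2 and Stau2 were intronic, and the other 6 were intergenic at 7462 to 278424 bp from the nearest transcription start site.

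Replicate 3 had 40543 peaks, replicate 1 had 18816 and replicate 2 had 8096. The members held 2583 peaks of replicate 1, or 13.7% of that list, and 2574 peaks of replicate 3, or 6.35% of that list. The score of a peak is 10 times the negative log10 of its MACS p-value against the input. The threshold of 1e-05 is thus a score of 50, and scores were ranked within a list because depth is unknown. Members had a median score of 84.9 in replicate 1, at the 55.0 percentile of its list, and of 73.3 in replicate 3, at the 64.5 percentile. Regions of all 3 replicates had medians of 180.3 (82.6 percentile) in replicate 1 and 189 (92.8 percentile) in replicate 3. Members were also narrower, with a median merged width of 306 bp (quartiles 242 and 382 bp) against 401 bp (324 and 510.0 bp). The ranges overlapped, with members reaching the 99.6 percentile of replicate 1 and the 98.4 percentile of replicate 3. These highest scores, 1427.01 and 546.6, came from a stretch of chromosome 9 described under other observations. All members there lay mostly in multi-copy sequence.

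**Figure D1:**
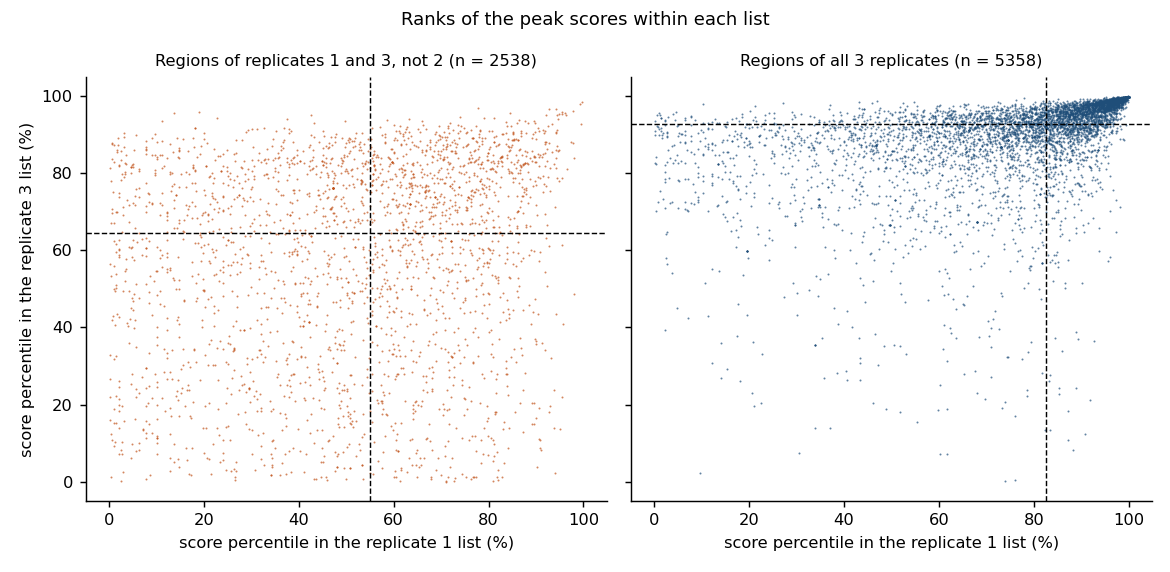
Score percentile of each region in the replicate 1 list (x axis) and in the replicate 3 list (y axis), with 1 point per region and dashed lines at the medians. The 2538 members (left) are spread over both ranges around medians of 55.0 and 64.5, whereas the 5358 regions of all 3 replicates (right) gather at the top, around 82.6 and 92.8.

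Of the members, 1252 (49.3%) had scores below 100 in both replicates, against 411 (7.67%) of the regions of all 3. Scores of at least 100 in both, a p-value of 1e-10 or less, were reached by 306 members (12.1%) and by 3727 regions of all 3 (69.6%). At a score of 200 or more in both, 16 members (0.630%) remained, against 1788 regions of all 3 (33.4%). When the members and the regions of all 3 were pooled and put in order of the replicate 3 score, the share with a replicate 2 peak was 11.6% in the lowest group of 790 regions. It was 71.7% in group 5 of 10 and 99.9% in the highest group, which held 1 member. Ordered by the replicate 1 score, the share ran from 37.1% to 98.5%.

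**Figure D2:**
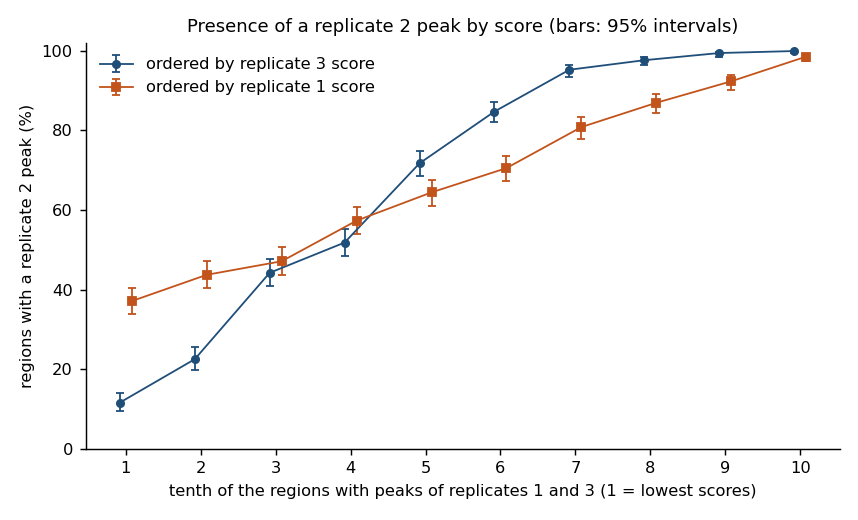
Share of the regions with peaks of replicates 1 and 3 that also held a replicate 2 peak (y axis, %), in 10 groups of equal size from the lowest to the highest score (x axis), with 95% Wilson intervals. The share was 11.6% in the lowest and 99.9% in the highest group of replicate 3 scores, and 37.1% and 98.5% for replicate 1.

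The starts of peaks did not relate the 3 lists evenly. Overlapping peaks of replicates 1 and 3 shared their first base in 1.63% of cases. For replicates 2 and 3 this share was 34.5%, and for replicates 1 and 2 it was 0.922%. Whether this bears on which regions lack replicate 2 was not tested.

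The members just inside the threshold had Ipo9 and Pcdh7 as nearest genes. That of Ipo9 lay in an intron of another gene, Nav1, 68732 bp from the start of Ipo9. Its scores were 122.76 in replicate 1 and 50 in replicate 3. That of Pcdh7 was intergenic, 1419864 bp from the start, with 122.86 and 50.04. Pcdh7 encodes a protocadherin. On the other side, the regions of all 3 replicates with the lowest replicate 2 scores lay in Sp110, with 50.04, and near Irf2, with 50.05. The members closest to a replicate 2 peak had Il28ra and Edem1 as nearest genes, at 7286 and 676647 bp from their starts. That peak began directly beside the region of Il28ra and was 4 bp away from that of Edem1. A replicate 2 peak lay within 50 bp of 21 members (0.827%) and within 1000 bp of 181 (7.13%), and the other 2357 members had none within that distance.

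The middle of 662 members was at a promoter, meaning no more than 2000 bp from where a protein-coding gene starts, or 26.1% (95% Wilson interval 24.4 to 27.8%). A further 644 members (25.4%) were intronic, 1200 (47.3%) were intergenic and 32 (1.26%) exonic. At the start site itself, within 100 bp, were 273 members, or 10.8% (9.61 to 12%), against 6.25% (5.63 to 6.93%) of the regions of all 3. The median distance to the nearest start site was 18289 bp for members and 23744 bp for regions of all 3. Members were at promoters more often than regions of all 3, of which 19.2% (18.2 to 20.3%) were there, a difference of 6.90 percentage points (95% Newcombe interval 4.91 to 8.92). The difference from regions of replicates 2 and 3, with 12.4% at promoters, was 13.7 points (11.5 to 15.9). Intervals throughout cover counting error only, and regions are not replicates of the experiment.

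**Figure D3:**
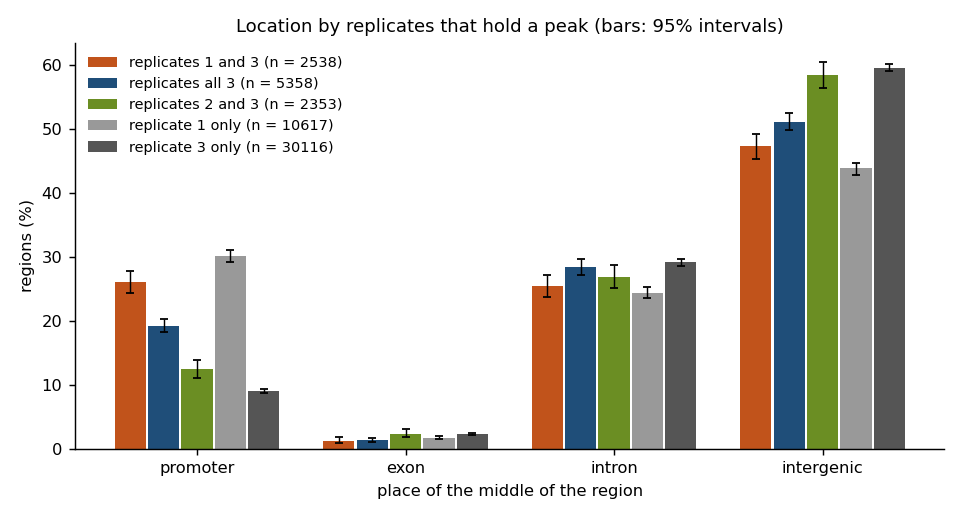
Share of regions (y axis, %) by the place of their middle (x axis) for 5 sets of merged regions, named by the replicates that hold a peak in them, with 95% Wilson intervals. Members were at promoters in 26.1% of cases, between the 30.1% of regions of replicate 1 only and the 9.03% of regions of replicate 3 only.

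The promoter share moved with the replicates and with the score. Regions of replicate 1 alone were at promoters in 30.1% of cases (29.2 to 31.0%) and regions of replicate 3 alone in 9.03% (8.71 to 9.35%). When the replicate 1 list was left out of the merging, 32772 regions had replicate 3 without replicate 2, which took in the members. They were at promoters less often than the 7755 regions with both replicates 2 and 3, which took in those of all 3. The difference was -6.82 points (-7.73 to -5.93), so the direction was the opposite. Among regions of like rank, with replicate 3 percentiles between the lower and upper quartile of the members, 323 of 1268 members and 170 of 693 regions of all 3 were at promoters. There the difference was 0.942 points (-3.12 to 4.87), an interval that includes 0. In 4 groups of equal size by replicate 3 score the difference was 2.37, -0.810 and 5.91 points in the lower 3, each with an interval that includes 0. In the highest it was 37.4 points (15.4 to 58.4), from 9 of 17 members against 15.5% of the regions of all 3. Of these 17 members only 5 were not mostly multi-copy, against 1757 of the 1957 regions of all 3, and the part of this in the difference was not tested. Ranked by replicate 1 instead, the difference was positive in each of 4 groups of equal size, from 3.63 points (-0.167 to 7.49) in the second to 16 points (8.06 to 24.9) in the highest. Member promoters were rich in G and C, with a median of 58.3% against 48.0% in intergenic members, and regions of all 3 at promoters had 57.5%.

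Most members lay in sequence that occurs once in the genome. Of the members, 1665 (65.6%) held no 50-base sequence with a second copy in the reference, and 456 (18%, interval 16.5 to 19.5%) were mostly multi-copy, meaning that over 50% of their 50-base sequences have another copy. This was 4.03 points (2.29 to 5.81) above regions of all 3, with 13.9%. From regions of replicates 2 and 3, with 46.2%, the difference was -28.2 points (-30.7 to -25.7). The 3 widest members were all of this kind, with multi-copy shares of 77.8% near 4930467E23Rik (5266 bp wide), 92.1% near C130026I21Rik (5152 bp) and 86.6% near Tmem181b-ps (4240 bp). Genes of small nuclear or nucleolar RNAs were in 12 members (0.473%), against 55 regions of all 3 (1.03%).

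Few members lay beside a region of all 3 replicates. Their median distance to the nearest region of all 3 replicates was 101586 bp, and 380 of 2537 (15%) had one within 10000 bp. Between regions of all 3 themselves the median distance was 89224 bp, with 18% within 10000 bp. On chromosomes other than Y, which held 1 member, the density ran from 0.420 members per Mb on X to 1.79 on chromosome 19. The share of members among members and regions of all 3 ran from 25.3% on chromosome 3 to 40.2% on chromosome 7.

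The short SOX word ACAAWR (R is A or G), the core that the SOX sites share, was present in the central 200 bp of 1583 members, or 62.4% (60.5 to 64.2%). It was present in 47.8% (46.4 to 49.2%) of windows of the same size 2000 bp to each side, a difference of 14.6 points (12.2 to 16.9). Regions of all 3 held it in 72.1% of windows, and the difference, members minus regions of all 3, was -9.73 points (-12 to -7.50). Regions of replicates 2 and 3 held it in 54.2%, and members exceeded them by 8.19 points (5.42 to 10.9). AACAAW was in 40% of member windows against 32.6% of flanks (difference 7.36 points, 5.06 to 9.66), and in 47.9% of the regions of all 3. GACAAW, a form with G at the first base, was in 27.5% against 18.2% of flanks. In regions of all 3 it was in 33.2%.

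**Figure D4:**
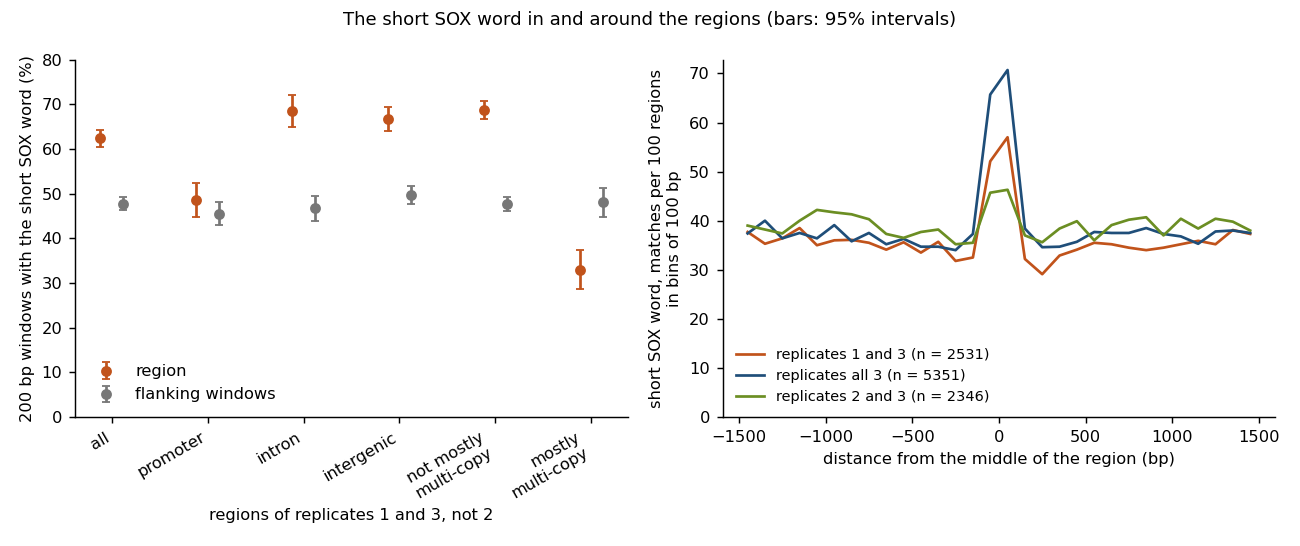
Left, share of 200 bp windows with the short SOX word ACAAWR on either strand (y axis, %) in members and in their flanking windows, by place and by multi-copy sequence, with 95% Wilson intervals. Right, matches per 100 regions in bins of 100 bp (y axis) by distance from the middle of the region (x axis, bp). Members as a whole held the word in 62.4% of windows against 47.8% of flanks, while the 456 mostly multi-copy members held it in 32.9% against 48.1%.

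The gain over the flanks was not the same at every place. Intronic members held ACAAWR in 68.6% of windows against 46.7% of flanks, and intergenic members in 66.8% against 49.7%. In promoter members the difference was 3.10 points (-1.55 to 7.74), with 48.6% against 45.5%, and for AACAAW it was -3.93 points (-8.03 to 0.323). For these words in 200 bp windows the difference between region and flank was thus not detectable at member promoters. Over the whole region AACAAW was less frequent there than in flanks, by a difference of -8.34 points (-12.8 to -3.79), and the POU octamer in 200 bp windows was more frequent (2.04 points, 0.730 to 3.73). Promoters of regions of all 3 held ACAAWR in 58.0% of windows against 47.4% of flanks (10.5 points, 6.80 to 14.2). Mostly multi-copy members held ACAAWR less often than their flanks, with a difference of -15.2 points (-20.5 to -9.75). Without them, the other 2082 members held it in 68.8% of windows, against 77.7% of the regions of all 3 that were not mostly multi-copy and 64.1% of those of replicates 2 and 3.

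The difference in words between members and regions of all 3 also moved with the score rank. Across whole regions, AACAAW was in 49.2% of members (47.2 to 51.1%) and in 62.8% of the regions of all 3, a difference of -13.7 points (-16 to -11.3). In 200 bp windows, which set the widths equal, the difference was -7.98 points (-10.3 to -5.64). Between the quartiles of the members' replicate 3 percentiles the difference in 200 bp windows was 2.18 points (-2.37 to 6.66), the opposite sign with an interval that includes 0. In the lowest of 4 groups of equal size by replicate 3 score, ACAAWR was in 61.9% of 1535 members and 56.0% of 439 regions of all 3 (5.85 points, 0.664 to 11.1). There, without mostly multi-copy regions, the shares were 68.3% and 68.1%. In the next group but one, 61.7% of 167 members held it against 73.0% of 1807 regions of all 3 (-11.3 points, -19.1 to -3.98).

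The POU octamer, searched as ATGCAAAT and ATGCTAAT, was in 138 member windows (5.44%) against 1.87% of flanks. The joined SOX/POU word was in 77 (3.03%, interval 2.43 to 3.78%) against 12 of 5074 flanks (0.236%), a ratio of 12.8. Of these 77 member windows, 15 held the core ACAAW in the SOX side of the word, as did 1 of the 12 flanks. Regions of all 3 held the joined word in 6.46% of windows (members minus regions of all 3, -3.42 points, -4.34 to -2.45), and regions of replicates 2 and 3 in 2.29%, with an interval of the difference that includes 0 (-0.173 to 1.65). Intergenic members held it in 4.17% of windows, intronic members in 3.26% and promoter members in 0.906% (6 of 662), against 0.227% of the flanks of promoter members (difference 0.680 points, 0.0226 to 1.75). Words matched by chance are part of every share, and a match is not shown to be a bound site. The flanks are a background for such matches only where their base composition is like that of the regions, which was not compared. At member promoters and in mostly multi-copy members some words were less frequent than in the flanks.

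Each region was assigned to the protein-coding gene with the nearest transcription start site, counting genes by symbol. The members had 2162 nearest genes, which is 9.73% of the 22225 genes, and regions of all 3 had 3689 nearest genes (16.6%). Of the genes nearest to a member, 841 were also nearest to a region of all 3. The other 1321 genes, 5.94% of all genes, are those gained when replicate 2 is not asked for. They were 7.13% of the 18536 genes without a region of all 3. Among members, 1092 (43.0%) therefore lay beside a gene that already had a region of all 3, and 1446 (57.0%) beside a gained gene. Most gained genes, 1210 of 1321, had 1 member, and 478 had a member at a promoter.

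Developmental genes were described by 16 lists of transcription factors, signalling pathways and guidance molecules, with 460 of 464 genes matched to the annotation. Of these genes, 203 (44.1%, against 16.6% of all genes) were nearest to a region of all 3, 104 (22.6%, against 9.73%) to a member and 67 to both. Gained developmental genes numbered 37, or 8.04% against 5.94% of all genes, and 14.4% of the 257 developmental genes that had no region of all 3, against 7.13% of all such genes. Of the 37, 9 had a member at a promoter. Developmental genes have more surrounding sequence that is closest to them, with a median of 100533 bp against 45759.5 bp over all genes. Among the genes with the most such sequence (median 215462 bp) and no region of all 3, 18 of 84 developmental genes were gained (21.4%) against 14.9% of all genes. Among those with the least (median 12918 bp), 6 of 60 were gained (10%) against 3.81%. In the groups between, with medians of 31926 and 66794 bp, 7 of 47 were gained (14.9%) against 4.96%, and 6 of 66 (9.09%) against 7.37%. The lists were chosen with results known and were not tested against other genes.

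**Figure D5:**
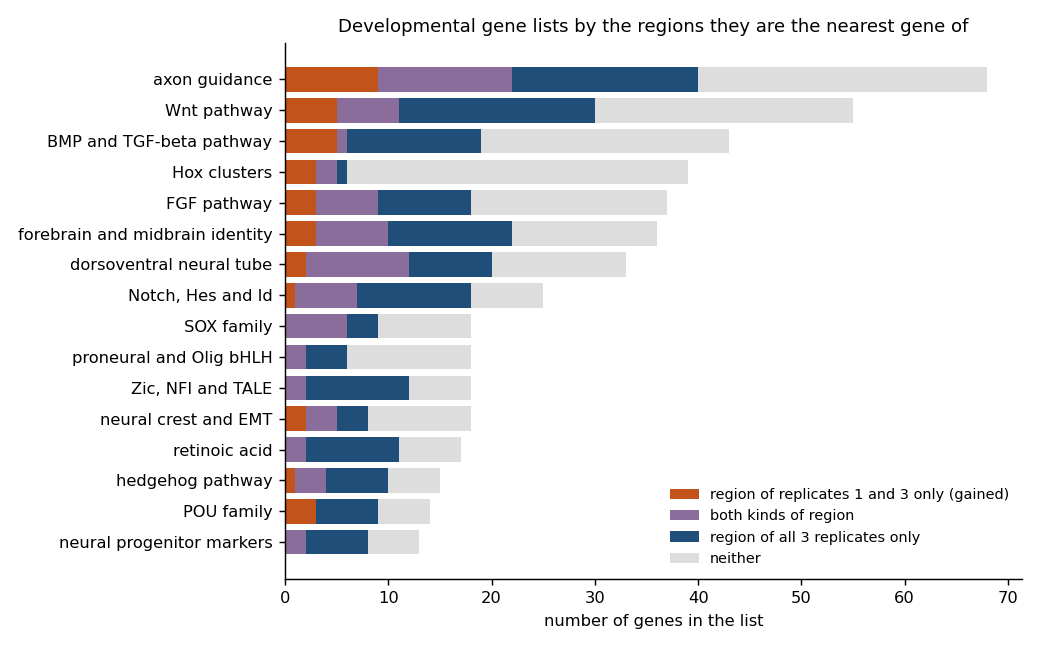
Number of genes (x axis) of each of 16 developmental lists (y axis) that were the nearest gene of a member only (gained), of both kinds of region, of a region of all 3 replicates only, or of neither. Axon guidance had 9 gained genes of 68, the SOX family, proneural genes, NP markers, the Zic, NFI and TALE list and the retinoic acid list had 0.

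Among transcription factors, the POU family gained 3 of 14 genes (21.4%, beside 5.94% of all genes) and had 6 with a region of all 3. Pou3f2, a neural factor that partners SOX proteins, had a member of score 97.08 in replicate 1 and 127.71 in replicate 3, intergenic and 179483 bp from its start. Pou4f2 and Pou4f3, factors of sensory neurons, had members of 139.45 and 53.33, and of 73.92 and 78.81, in replicates 1 and 3. All 3 of these members were intergenic, and that of Pou4f3 was 64.5% multi-copy. Forebrain and midbrain identity genes gained 3 of 36 (8.33%). Dlx2 had scores of 151.8 and 151.66, at the 78 and 90.3 percentiles. Emx2, a homeobox gene of the dorsal telencephalon, had 86.23 and 102.74 at 126906 bp from its start. Nr2f2, an orphan nuclear receptor of interneurons and other cells, had 2 members, the stronger with 280.77 and 69.37, at 410156 and 356854 bp from the start. Each of these 4 members lay beyond the upper quartile of the members' distances, 73607 bp.

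Of dorsoventral neural tube genes 2 of 33 were gained (6.06%), a share near the 5.94% of all genes. The member of Irx5, an Iroquois homeobox gene, lay 4340 bp from its start with scores of 131.32 and 153.57, and held ACAAWR 2 times but no AACAAW. Isl2, a LIM homeobox gene of motor neurons, had a promoter member 155 bp from the start with 214.52 and 64.08. The Hox clusters gained 3 of 39 genes (7.69%), and 3 others had regions of all 3. Hoxa3 had a promoter member 110 bp from its start (108.26 and 68.53), and Hoxb13 and Hoxd3 had members 3966 and 7194 bp away. In the SOX family 9 of 18 genes had a region of all 3 and 6 of those also had a member, so that 0 were gained. Proneural genes, NP markers, the Zic, NFI and TALE list and the retinoic acid list likewise gained 0, with 6 of 18, 8 of 13, 12 of 18 and 11 of 17 genes near regions of all 3.

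Apart from retinoic acid, the signalling pathways gained between 1 and 5 genes each, beside 5.94% of all genes. The shares were 9.09% for Wnt, 11.6% for BMP and TGF-beta, 8.11% for FGF, 4.00% for Notch, Hes and Id, and 6.67% for hedgehog. The Wnt pathway gained 5 of 55. Among them were the ligands Wnt5a (scores 65.38 and 66.16) and Wnt10a (56.23 and 62.38), and Apc, a part of the complex that degrades beta-catenin (257.73 and 53.72). The member assigned to Wnt5a lay in an intron of another gene, Erc2, 255734 bp from the Wnt5a start. Those of Wnt10a and Apc were intergenic, at 14981 and 88164 bp from their starts. The BMP and TGF-beta list gained 5 of 43. Smad6, an inhibitory Smad, had a promoter member with its middle 10 bp from the start (129.37 and 56.16) and 2 AACAAW words. The ligand Bmp7 had 59.19 and 55.46, and the receptor Tgfbr2 had 57.69 and 85.39, at 182344 and 123722 bp from their starts. The FGF pathway gained 3 of 37. Spred3, an inhibitor of Ras signalling, had a promoter member 405 bp from its start with 152.73 and 92.3, the ligand Fgf21 had 151.31 and 70.09, and the feedback inhibitor Spry1 had 60.62 and 54.12. Of 25 Notch, Hes and Id genes, 17 had a region of all 3 and 1 was gained, the receptor Notch4, with a promoter member 20 bp from its start (309.64 and 72.22). Dhh was the gained gene of 15 hedgehog genes, with a member of 54.72 and 54.52 at 7003 bp.

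Axon guidance genes, which encode ligands and receptors that steer growing axons, formed the longest of the 16 lists and had 9 of 68 gained (13.2%, beside 5.94% of all genes), with 31 near a region of all 3 and 13 near both. By share the POU family was higher, with 21.4% of its 14 genes. The member of Slit2 had 175.1 in replicate 1 and 105.33 in replicate 3, at the 82.0 and 82.8 percentiles, and lay 425826 bp from the start and 1384848 bp from the nearest region of all 3. Plxnb2, a semaphorin receptor, had a promoter member 28 bp from its start with 196.29 and 77.24. Sema3b, a secreted semaphorin, had 123.15 and 76.7 at 3631 bp. Among genes that had both kinds of region, Efnb2, a membrane-bound ephrin ligand that was picked out after its values were seen, had 5 members and 10 regions of all 3, the most of any developmental gene. The neural crest list gained 2 of 18 (11.1%), Ednrb and Ednra. The stronger member of Ednrb, 55184 bp from its start, had 361.88 and 104.13, and its promoter member had 139.12 and 126.73. Ednra, the receptor of the same family, had 67.24 and 117.1 at 111480 bp.

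Of 13 genes that change expression in Sox3 null NP cells, 9 (69.2%) had a region of all 3, beside 16.6% of all genes. A member was found for 4 (30.8%), beside 9.73% of all genes, and 2 of these 4 had no region of all 3. These 2 are Ednrb, with the pair of members above, and Slc44a5, with an intronic member of 59.37 in replicate 1 and 101.06 in replicate 3. Slit1 and Cspg5 had both kinds of region. The member in an intron of Slit1 was near the threshold in both lists, with 50.89 and 50.11, at the 2.60 and 0.255 percentiles, and held 2 AACAAW words. That in an intron of Cspg5, a brain proteoglycan, had 97.08 and 50.47, lay wholly in multi-copy sequence and held no SOX word. The list is the study's and was chosen for the presence of peaks in these samples, so its shares are not independent of the data. The study counts the members of all 4 genes among its own sites, so the lack of a replicate 2 peak refers to the lists as merged here. Outside the developmental lists, 1 of 15 pluripotency genes (6.67%), 1 of 10 genes of other germ layers (10%) and 0 of 67 histone genes were gained, beside the 5.94% of all genes. Of the histone genes 57 had a region of all 3.

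The strongest members by rank gave scores well above the threshold in both lists. The member of Smndc1 had 378.25 in replicate 1 and 325.66 in replicate 3, and that of Gm9797 had 345.41 and 186.26. The nearest replicate 2 peak was 8284 bp from the member of Smndc1 and 43905 bp from that of Gm9797. The members of Epha7 (324.22 and 179.21) and Cd180 (309.9 and 249.57) lay 825002 and 340964 bp from the nearest start, so that the gene named is the closest in the annotation and no more. Over the whole region Smndc1 had 3 ACAAWR words, Gm9797 6, Epha7 5 and Cd180 5. These 4 regions were at the 92.1 percentile or above in each list, and their 50-base sequences each occur once in the reference.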

How the data were processed

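SOX3-bound DNA of 3 biological replicates of NP cells was sequenced. Per the labels and the study's methods, the authors aligned 50 bp reads to mm9 with Bowtie (1.0.0 in the submitters' processing notes) and called peaks per replicate with MACS against the input, at a p-value threshold of 1e-05. The deposited scores are p-values on the scale of 10 times the negative log10, with no normalization between replicates.

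Peaks overlapping by 1 bp or more were merged, 67455 in all. The members and gene lists were chosen with earlier results of these data known. Genes and start sites came from GENCODE vM1 on NCBIM37, the same assembly as mm9, and 0 peaks ran past a chromosome end. Genes were counted by symbol. Sox1, Pou5f2, Disp1 and Spry3 were not matched. Words were searched on both strands with unknown bases left out. Copies were counted for 50-base sequences on either strand. Shares have 95% Wilson intervals and differences 95% Newcombe intervals. No test of gene sets was run. The regions named are the 5 with the highest lower percentile (1 of them is not reported here), the 3 widest, those next to the thresholds, all near genes changed in Sox3 null NP cells, and up to 3 gained genes per list. Merging, word search and copy counting were tested on simulated data. Conservation and reads were not analysed here. Python 3.11.15, numpy 2.4.6, pandas 2.3.3, scipy 1.17.1, matplotlib 3.10.9, pysam 0.24.0 and numba 0.67.0 were used.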

Additional observations from a re-analysis of the deposited data

How the results depend on the processing

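The number of members, 2538, was 306 with p-values of 1e-10 or less in replicates 1 and 3 and 379 with equal numbers of peaks per list. Leaving out a replicate changes the rule itself and gave 7899 to 32772 regions, the highest without replicate 1. The 1321 gained genes became 188 and 221 under these first alternatives, and 5593 to 7873 without a replicate. The 37 developmental genes gained became 4 and 5, and 120 to 121. The promoter share, 26.1%, was 28.4% at 1e-10, 24.0% with a reciprocal overlap of 50%, 28.7% without mostly multi-copy regions, 22.4% and 32.5% within 1000 and 5000 bp, and 10.4 to 29.4% without a replicate, the lowest without replicate 1. The share of regions with AACAAW, 49.2%, was 58.8% at 1e-10, 58.0% with equal numbers, 54.0% without mostly multi-copy regions, 40% in 200 bp windows and 30.9 to 58.4% without a replicate. The mostly multi-copy share, 18%, was 12.7%, 12.9% and 19.5% at 1e-10, with equal numbers and with a reciprocal overlap of 50%, and 15.3 to 28.7% without a replicate.

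The difference in AACAAW from regions of all 3, -13.7 points, kept its sign and an interval without 0 under 8 alternatives, at -30.1 to -19.5 points without replicate 3 or 1, and turned to 2.18 points between the quartiles of the members' replicate 3 percentile. The difference in promoter share, 6.90 points, was recomputed under alternatives chosen after seeing the data. It was 0.942 points in that range of ranks, and -6.82 points without replicate 1 and 10 without replicate 3. Without mostly multi-copy regions it was 9.35 points (7.12 to 11.6). With promoters within 1000 and 5000 bp it was 6.59 (4.72 to 8.51) and 6.49 points (4.33 to 8.67). The cause of these shifts was not tested. Without replicate 2 no gained gene or difference could be computed. With no replicate 2 peak within 1000 bp there were 2357 members and 1306 gained genes, and the difference in AACAAW was -13.4 points. The difference in promoter share was not computed there. No paired analysis was possible because all 3 replicates belong to 1 group. The unknown depth limits what a missing replicate 2 peak shows.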

Other observations

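One stretch of chromosome 9, from 3003893 to 3038444, held 23 members and 1 region with a replicate 2 peak among its 28 merged regions, and was picked out after its values were seen. All 23 members were mostly multi-copy, with shares from 68.7 to 100%, and they included 10 of the 15 members with the highest lower score percentile. Their replicate 1 scores ran from 93.91 through a median of 381 to 1427.01, and their replicate 3 scores from 53.85 through 169.8 to 546.6. Bases of the stretch were equal in 70.8% of cases after a shift of 234 bases, and AACAAW occurred in 4 of the 23. Its part in the word shares of the mostly multi-copy members was not tested.

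Regions of replicates 2 and 3 without replicate 1 held ACAAWR in 54.2% of 200 bp windows against 50.5% of flanks. Without the 46.2% that were mostly multi-copy, they held it in 64.1% against 47.8% of flanks, and the other members in 68.8% against 47.7%. The difference between these sets was 4.74 points (1.45 to 8.06).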
